A study of Homo sapiens with 6 samples.

Results

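Homologous recombination repairs double-strand breaks by copying the sister chromatid, and the Fanconi anemia pathway unhooks interstrand crosslinks before recombination mends them. Post-replicative mismatch repair removes base mispairs that DNA polymerases leave behind. The 42 genes described here serve these 3 tasks and were taken by symbol from a list of members, among 53826 gene entries measured in each library, with no symbol occurring more than once. They fall into 9 groups by role, from the BRCA1-BRCA2 mediators of strand invasion to the MSH6 and PMS2 subunits of mismatch repair. Many of these genes are known to be transcribed mainly in late G1 and S phase, when DNA is copied, and several are known targets of E2F factors in dividing cells.

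PK-1 and Panc-1, established cell lines from pancreatic ductal adenocarcinoma (PDAC), were left as controls or exposed for 24 h to 1 of 2 antagonists of retinoic acid receptor γ. The antagonists were LY2955303 (RARγi-1) and MM11253 (RARγi-2), and RNA sequencing was used to learn how they act on the cell cycle and proliferation. Each of the 6 conditions was 1 library, so the differences below carry no p-value and could not be checked against replicates. The doses and the vehicle of these libraries are not given in the sources used here, so values for RARγi-1 and RARγi-2 stand side by side and were not compared with each other. Both RARγi-2 libraries carry RARγi-1 in their treatment label, and they were placed by their titles.

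Levels are in TPM, transcript abundance scaled for gene length and library size, so genes can be compared within a library. The deposited values have a floor of 1 TPM, and 13149 to 13652 entries lay above it in a library. The depth of the libraries is unknown, since TPM does not keep it. A change is log2 of (TPM + 1) in the treated library minus the same in the control of its line, and a gene is called lower or higher when it passed 2-fold. Calls needed at least 3 TPM in 1 or more of the 3 libraries of the line, the level from which a 2-fold fall can be seen. All 42 genes count in the denominators below, of which 41 passed this filter in PK-1 cells and 39 in Panc-1. RAD51B missed it in both lines, and BRCA2 and FANCM missed it in Panc-1. As a measure of spread, the inhibitor libraries of each line were set against each other over all tested entries, which gave 0.41 on the log2 scale for a fold change in PK-1 cells and 0.32 in Panc-1. That spread includes real differences between the inhibitors.

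Of the epithelial markers, PK-1 had KRT7, KRT8, KRT18 and KRT19 with EPCAM at 578 TPM and CDH1 at 170 TPM in the control, whereas Panc-1 had KRT8, KRT18 and KRT19 with EPCAM at 13.4 TPM and CDH1 at the floor. The 6 epithelial markers summed to 22498, 13507 and 14127 TPM in the control, RARγi-1 and RARγi-2 libraries of PK-1, and to 8419, 1784 and 1485 TPM in those of Panc-1. The endothelial markers (4 of 4), 5 of 6 fibroblast markers and, of the leukocyte markers, PTPRC and CD3E were at the floor in every library. COL1A1, the remaining fibroblast marker, summed with the others to 8.21 to 18.4 TPM in PK-1 cells and 7.10 to 57.4 TPM in Panc-1. The 5 leukocyte markers summed to 28.7 to 104 TPM in PK-1 cells and 247 to 285 TPM in Panc-1. CD68, a lysosomal protein that tumor cells also make, was at 19.8, 95.0 and 62.6 TPM in PK-1 cells and 244, 276 and 238 TPM in Panc-1. In bulk RNA, fewer cells in S phase and less of a transcript per cell cannot be told apart.

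Most genes of recombination, Fanconi and mismatch repair stood below the control in every treated library, and more of them were called lower in PK-1 than in Panc-1. With RARγi-1 in PK-1, 20 of the 42 genes fell by more than 2-fold, where 5.63 percent of all tested entries did. With RARγi-2 in PK-1, 29 fell, beside 14.3 percent. In Panc-1, 7 fell with RARγi-1, beside 6.95 percent, and 17 fell with RARγi-2, beside 12.9 percent. As shares of the 42 genes these counts were 47.6, 69.0, 16.7 and 40.5 percent. No member rose past 2-fold in any of the 4 comparisons, where 10.5 (PK-1, RARγi-1), 13.8 (PK-1, RARγi-2), 8.53 (Panc-1, RARγi-1) and 9.74 percent (Panc-1, RARγi-2) of all tested entries did.

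The shift was not limited to the genes past the threshold. In the order PK-1 RARγi-1, PK-1 RARγi-2, Panc-1 RARγi-1 and Panc-1 RARγi-2, which is used throughout, the median log2 fold change of the tested members was -0.98, -1.65, -0.73 and -0.87. The median of all tested entries in the same order was 0.16, 0.01, 0.10 and -0.03. Values below the control were seen in 37, 39, 32 and 36 members, and 29, 35, 25 and 30 of them were below by more than the spread. The same shares of all tested entries were not computed. The 10th percentile of all tested entries was -0.72, -1.24, -0.80 and -1.16, so many other entries were also below by more than the spread. Members within the spread numbered 11, 6, 14 and 11. Those above it were FANCF and MUS81 in PK-1 with RARγi-1, MUS81 in PK-1 with RARγi-2, RAD52, RAD50 and RBBP8 in Panc-1 with RARγi-1, and RAD50 in Panc-1 with RARγi-2. The 2 comparisons within a line share 1 control library and are not independent.

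**Figure D1:**
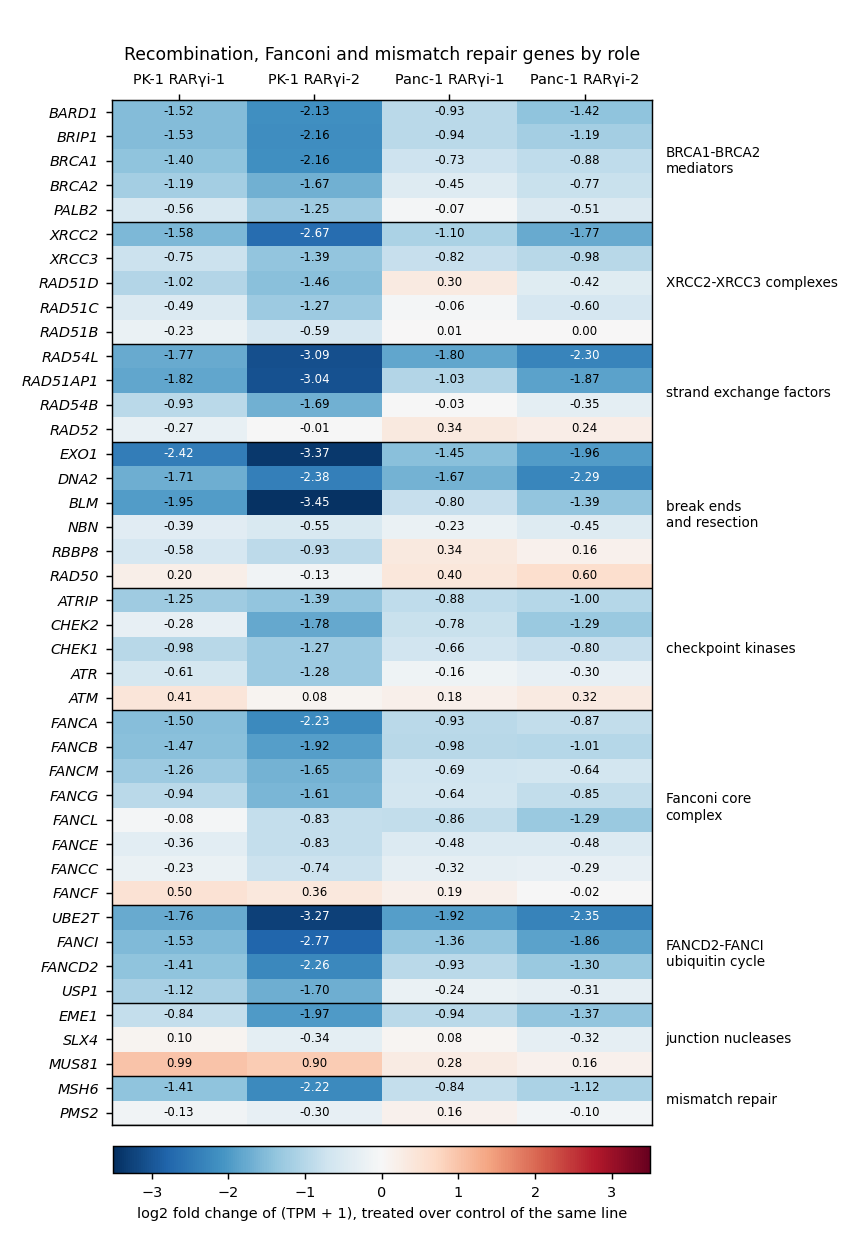
Log2 fold change of (TPM + 1) over the control of the same line for all 42 genes, 1 column for each treated library, with genes ordered within their role and blue for lower values. EXO1, BLM, UBE2T, RAD54L and RAD51AP1 are the darkest in PK-1 with RARγi-2, at -3.04 to -3.45, while MUS81, RAD50, ATM and FANCF are pale or red.

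Because E2F factors and the DREAM complex control many of these genes, the RefSeq promoter windows of GRCh38.p14, from 250 bases before to 50 bases after a transcription start, were searched on both strands. All 42 members matched RefSeq by Entrez ID and 38 had a window, which NBN, RAD54B, DNA2 and FANCI lacked. Any of the letters TTTCCCGC, TTTCGCGC, TTTGCCGC or TTTGGCGC, the 8-base form of an E2F site, was held by 7 of these 38 genes (18.4 percent), against 5.40 percent of 15843 coding genes with a window. Dropping the first T gave 22 genes (57.9 percent) against 20.5 percent, and these 7-base matches include the 8-base ones. For each gene a stretch of 30 bases around 1 of its 8-base matches is shown so that the match can be seen beside the change of its gene. FANCC holds another in the same window, farther upstream, which is left out. Each stretch is written 5′ to 3′ on the strand of the gene with the matched bases in capitals, which read GC first where the match is on the other strand.
EXO1 (chr1:241848197-241848226, plus strand): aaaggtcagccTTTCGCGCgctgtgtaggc
FANCD2 (chr3:10026424-10026453, plus strand): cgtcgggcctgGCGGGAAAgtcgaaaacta
MSH6 (chr2:47783137-47783166, plus strand): ctccccccagaTTTCCCGCcagcaggagcc
XRCC2 (chr7:152676102-152676131, minus strand): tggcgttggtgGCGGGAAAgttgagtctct
FANCA (chr16:89816801-89816830, minus strand): actacaccgcgGCGGCAAAgccaaacgcaa
FANCC (chr9:95317737-95317766, minus strand): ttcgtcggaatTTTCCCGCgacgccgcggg
PMS2 (chr7:6009131-6009160, minus strand): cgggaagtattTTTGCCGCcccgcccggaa

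EXO1, FANCD2, MSH6, XRCC2 and FANCA, the first 5 of these genes, fell by more than 2-fold with both inhibitors in PK-1. FANCC and PMS2 hold a match of the same kind, and FANCC changed by -0.23, -0.74, -0.32 and -0.29 and PMS2 by -0.13, -0.30, 0.16 and -0.10. The 7 genes with a match had median changes of -1.41, -2.23, -0.93 and -1.12, and the 31 genes with a window and no match had -0.84, -1.39, -0.64 and -0.77. The ranges overlapped in every comparison, and BLM and UBE2T, among the members that fell most, hold no 8-base match in their windows. BLM holds the 7-base form and UBE2T does not. The 22 genes with the 7-base form had medians of -1.26, -2.05, -0.83 and -1.05. The 16 genes without it had -0.57, -1.27, -0.12 and -0.55, and these ranges overlapped as well. These matches are descriptions of the letters and not of binding.

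The CHR letters TTTGAA and the CCAAT box, which pair in promoters bound by DREAM and the B-MYB complex, were looked for in the same windows. TTTGAA was in 5 of the 38 genes (13.2 percent) against 15.8 percent of coding genes, and CCAAT in 19 (50 percent) against 42.1 percent. The 5 genes were ATM, BRIP1, FANCC, UBE2T and USP1. Their median changes were -1.12, -1.70, -0.32 and -0.31, and the other 33 genes had -0.94, -1.46, -0.69 and -0.85, so the matched genes had the lower median in PK-1 and the higher one in Panc-1. UBE2T and BRIP1 are shown as examples, chosen after their values were seen, that hold TTTGAA together with repeated CCAAT letters. ATM, which stood above its control in all 4 comparisons, also holds both kinds of letters. So does USP1, in separate windows, and it changed by -1.12, -1.70, -0.24 and -0.31. The stretches run up to the base before the transcription start on the minus strand, with the TTTGAA letters in capitals and likewise those of the CCAAT box, which read ATTGG where the box is on the other strand. The TTTGAA match of BRIP1 lies farther upstream than the stretch shown. In both genes TTTGAA lies upstream of every CCAAT match of the window. These matches too describe letters and not binding by either complex.
UBE2T (chr1:202341937-202342106, minus strand): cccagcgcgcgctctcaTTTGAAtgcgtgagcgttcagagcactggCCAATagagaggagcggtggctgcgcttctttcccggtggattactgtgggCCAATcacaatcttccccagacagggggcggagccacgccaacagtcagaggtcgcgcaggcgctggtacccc
BRIP1 (chr17:61863529-61863658, minus strand): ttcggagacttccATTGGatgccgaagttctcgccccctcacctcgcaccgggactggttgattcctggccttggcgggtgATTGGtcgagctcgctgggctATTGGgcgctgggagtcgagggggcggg

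The BRCA1-BRCA2 mediators fell together in PK-1, where 4 of 5 were called with RARγi-1 and 5 of 5 with RARγi-2. In Panc-1 the counts were 0 and 2. Of all tested entries, 5.63, 14.3, 6.95 and 12.9 percent fell, and these shares stand beside each group below. With RARγi-1 in Panc-1, BARD1 and BRIP1 held 43.4 and 38.8 percent of control TPM, and the added 1 TPM kept both from a call. BRCA1, the ubiquitin ligase that steers a break toward recombination, stood at 28.8 TPM in the PK-1 control, 10.3 with RARγi-1 and 5.69 with RARγi-2. In Panc-1 it started lower, at 12.5 TPM, and read 7.12 with RARγi-1 and 6.33 with RARγi-2. Its log2 fold changes were -1.40, -2.16, -0.73 and -0.88, so BRCA1 passed 2-fold in PK-1 and missed it in Panc-1.

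BARD1, the obligate partner of BRCA1, was at 7.78 TPM in the PK-1 control, 2.06 with RARγi-1 and at the floor with RARγi-2, and at 5.25, 2.28 and 1.34 TPM in the 3 libraries of Panc-1. Its changes were -1.52, -2.13, -0.93 and -1.42, and the second is a lower limit on the fall because the library was at the floor. The same holds for BRCA2, XRCC2 and FANCB in that library and for BRIP1 in Panc-1 with RARγi-2. BRIP1, the helicase that binds the BRCT repeats of BRCA1 and whose promoter is shown above, changed by -1.53, -2.16, -0.94 and -1.19.

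BRCA2, which acts on the single-stranded DNA of resected ends, was rare in both lines. It stood at 5.36 TPM in the PK-1 control, 1.78 with RARγi-1 and at the floor with RARγi-2. In Panc-1 it was at 2.48, 1.55 and 1.05 TPM, under the level at which a call was made. BRCA2 fell in PK-1 (-1.19 and -1.67), and read -0.45 and -0.77 in Panc-1. PALB2, the bridge between BRCA1 and BRCA2, had the smallest changes of the group. It was at 10.8, 7.0 and 3.97 TPM in PK-1 cells and 14.2, 13.5 and 9.72 TPM in Panc-1, with changes of -0.56, -1.25, -0.07 and -0.51. Only its fall with RARγi-2 in PK-1 passed 2-fold.

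Of the subunits of the XRCC2 and XRCC3 complexes, which assist strand invasion, 2 of 5 fell with RARγi-1 in PK-1 cells and 4 with RARγi-2, and in Panc-1 XRCC2 alone fell with each inhibitor. XRCC2 was at 11.8 TPM in the PK-1 control, 3.26 with RARγi-1 and at the floor with RARγi-2, and at 8.36, 3.37 and 1.74 TPM in Panc-1. Its changes of -1.58, -2.67, -1.10 and -1.77 were past 2-fold in all 4 comparisons, and with a pseudocount of 5 TPM both Panc-1 values missed it, at -0.67 and -0.99. XRCC3, which works with RAD51C, changed by -0.75, -1.39, -0.82 and -0.98. RAD51C, the subunit that both complexes share, changed by -0.49, -1.27, -0.06 and -0.60.

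RAD51D, the direct partner of XRCC2, differed in sign between the lines with RARγi-1, at -1.02 in PK-1 cells and 0.30 in Panc-1, and read -1.46 and -0.42 with RARγi-2. It shares exonic bases on its strand with RAD51L3-RFFL, and how reads there were assigned is not known. RAD51B was at 2.30, 1.82 and 1.20 TPM in PK-1 and between 1 and 1.02 TPM in Panc-1, too low for a call.

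The factors of strand exchange differed widely among themselves. RAD54L, the motor protein that drives strand invasion, was at 28.1 TPM in the PK-1 control, 7.51 with RARγi-1 and 2.41 with RARγi-2. In Panc-1 it was at 30.8, 8.10 and 5.47 TPM, so the controls were alike and both lines ended well below them. The changes were -1.77, -3.09, -1.80 and -2.30, and RAD54L kept 8.60 percent of its control TPM in PK-1 with RARγi-2. RAD51AP1, which promotes D-loop formation, changed by -1.82, -3.04, -1.03 and -1.87.

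RAD54B, a relative of RAD54L, changed by -0.93 and -1.69 in PK-1 and by -0.03 and -0.35 in Panc-1. RAD52, which anneals single strands and is needed little by human cells that have BRCA2, stayed near its control. It was at 5.69, 4.54 and 5.63 TPM in PK-1 cells and 4.48, 5.93 and 5.47 TPM in Panc-1. Its changes were -0.27, -0.01, 0.34 and 0.24, and the third lay just outside the spread of 0.32.

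The proteins that handle broken ends spanned a wide range. EXO1, the exonuclease of long-range resection that also serves mismatch repair, was at 28.5 TPM in the PK-1 control, 4.51 with RARγi-1 and 1.85 with RARγi-2. In Panc-1 it was at 26.3, 8.98 and 6.0 TPM. Its changes of -2.42, -3.37, -1.45 and -1.96 made it the member with the lowest value in PK-1 with RARγi-1. BLM, the helicase that unwinds ends for resection and dissolves joint molecules, had -3.45 in PK-1 with RARγi-2, the lowest value printed for any member, beside -1.95, -0.80 and -1.39 in the other comparisons. XRCC2, at the floor in that library, may lie lower. DNA2, the nuclease that cuts what BLM unwinds, changed by -1.71, -2.38, -1.67 and -2.29, nearly the same in both lines.

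Of the factors that meet the break first, the members RAD50, NBN and RBBP8 were not called lower in any comparison. RAD50, the coiled-coil ATPase of the MRE11-RAD50-NBN complex, was at 32.0, 36.9 and 29.2 TPM in PK-1 cells and 38.9, 51.7 and 59.4 TPM in Panc-1. Its changes were 0.20, -0.13, 0.40 and 0.60, the highest value among the members in both Panc-1 comparisons. NBN, the subunit that recruits ATM, changed by -0.39, -0.55, -0.23 and -0.45. RBBP8 (CtIP), which starts resection with that complex, read -0.58 and -0.93 in PK-1 cells and 0.34 and 0.16 in Panc-1. MRE11, the nuclease of the complex, is not among the 42 genes and was looked at after the values were seen. It changed by -0.70, -1.36, -0.40 and -0.49, and the second value passed 2-fold.

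**Figure D2:**
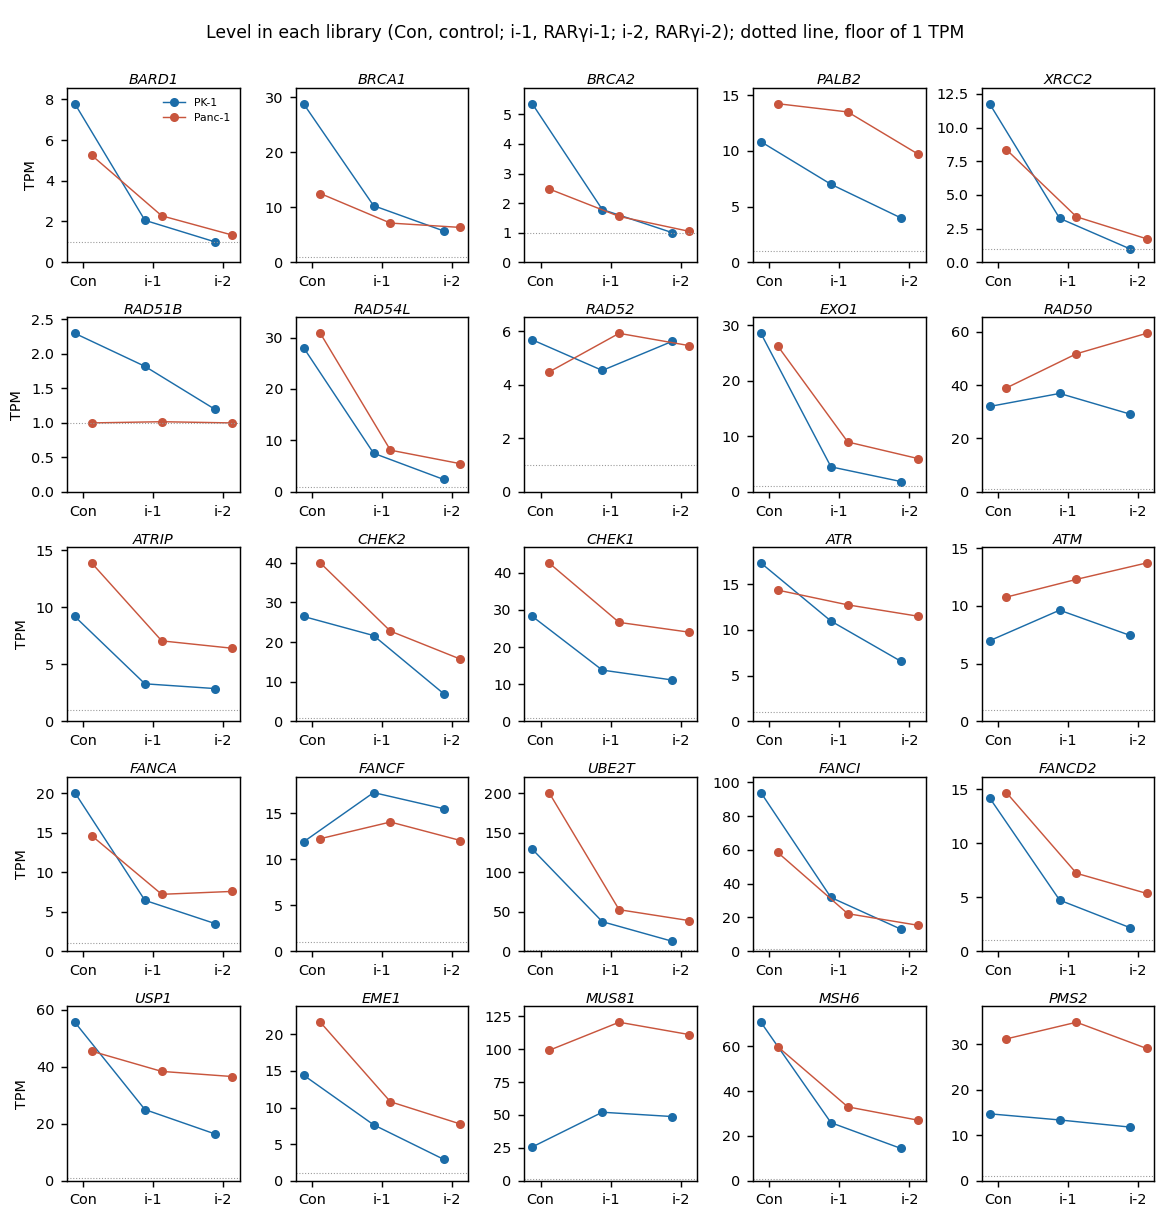
TPM of 25 genes in each of the 6 libraries on linear axes that start at 0, PK-1 in blue and Panc-1 in red, 1 point for each library and lines joining the libraries of a cell line. EXO1, RAD54L, UBE2T and FANCI drop steeply from the control in both lines, while ATM, RAD52 and PMS2 stay nearer to it. RAD50 reads 59.4 TPM in Panc-1 with RARγi-2 against 38.9 TPM in the control. MUS81 reads 52.1 TPM in PK-1 with RARγi-1 against 25.7 TPM in the control.

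The checkpoint kinases also differed among themselves, with 1, 4, 0 and 2 of 5 genes called. ATR, the kinase that answers stalled forks, was at 17.3, 10.96 and 6.56 TPM in PK-1 cells and 14.3, 12.7 and 11.5 TPM in Panc-1. ATRIP, the subunit that brings ATR to coated single strands, was at 9.20, 3.30 and 2.89 TPM in PK-1 cells and 13.9, 7.07 and 6.42 TPM in Panc-1. ATR changed by -0.61, -1.28, -0.16 and -0.30 and ATRIP by -1.25, -1.39, -0.88 and -1.005, so the last value of ATRIP was only just past 2-fold. ATRIP shares exons on its strand with TREX1, as CHEK1 does with STT3A, and how reads there were assigned is not known. In all, 8 members share exonic bases with another gene on their strand. They are ATRIP, CHEK1, BRCA1, RAD50, RAD51D, RAD52, RAD54B and RBBP8.

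CHEK1, the kinase below ATR, was at 28.3, 13.8 and 11.2 TPM in PK-1 cells and 42.6, 26.6 and 24.0 TPM in Panc-1. Its changes were -0.98, -1.27, -0.66 and -0.80, the first just short of the threshold. CHEK2, the kinase below ATM, was at 26.5 TPM in the PK-1 control, 21.6 with RARγi-1 and 7.01 with RARγi-2, and at 39.9, 22.8 and 15.7 TPM in Panc-1. It changed by -0.28, -1.78, -0.78 and -1.29, and its 4 annotated pseudogenes make the count uncertain. Annotated pseudogenes are named after 5 members, CHEK2, PMS2, RBBP8, FANCD2 and RAD51AP1, and the same caution holds for each. ATM, the kinase of double-strand breaks, was at 6.99, 9.63 and 7.46 TPM in PK-1 cells and 10.8, 12.3 and 13.7 TPM in Panc-1. All 4 of its changes were above the control, at 0.41, 0.08, 0.18 and 0.32, and none lay outside the spread.

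The Fanconi core complex, a ubiquitin ligase of several modules, had 3, 4, 0 and 2 of 8 genes called. In Panc-1 with RARγi-1, FANCA, FANCB and FANCM held 49.2, 38.3 and 47.4 percent of control TPM. The added 1 TPM kept FANCA and FANCB from a call, and FANCM was too low for one. FANCA, of the module that docks on chromatin with FANCG, was at 20.1, 6.42 and 3.49 TPM in PK-1 cells and 14.6, 7.19 and 7.55 TPM in Panc-1. Its changes were -1.50, -2.23, -0.93 and -0.87. FANCG changed by -0.94, -1.61, -0.64 and -0.85. FANCB, which holds the catalytic module together, changed by -1.47, -1.92, -0.98 and -1.01, and FANCM, the translocase that anchors the complex at a crosslink, by -1.26, -1.65, -0.69 and -0.64. These 4 genes were lower in each treated library, by more than 2-fold in PK-1 with RARγi-2.

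FANCL, the catalytic subunit, read -0.08 and -0.83 in PK-1 but -0.86 and -1.29 in Panc-1, and only its last value passed 2-fold. FANCC, FANCE and FANCF form the module that presents the substrate. FANCC changed by -0.23, -0.74, -0.32 and -0.29, and FANCE by -0.36, -0.83, -0.48 and -0.48. FANCF was at 11.9, 17.2 and 15.5 TPM in PK-1 cells and 12.2, 14.04 and 12.03 TPM in Panc-1, with changes of 0.50, 0.36, 0.19 and -0.02. None of these 3 genes passed 2-fold in either direction.

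Of the 9 groups, FANCD2 and FANCI with the enzymes that add and remove their ubiquitin had the lowest median in each comparison with the settings used here. Without a pseudocount the mediators were lower in PK-1 with RARγi-1 (-1.59 beside -1.58) and the strand exchange factors in PK-1 with RARγi-2 (-2.80 beside -2.78), and with a minimum of 10 TPM the strand exchange factors were lower in all 4 comparisons (-1.79, -3.06, -1.42 and -2.09). All 4 genes were called in PK-1 with each inhibitor, and 2 and 3 were called in Panc-1. UBE2T, the conjugating enzyme that works with FANCL, was the most abundant member in both controls. It stood at 129 TPM in the PK-1 control, 37.4 with RARγi-1 and 12.5 with RARγi-2, and at 201, 52.6 and 38.7 TPM in Panc-1. Its changes of -1.76, -3.27, -1.92 and -2.35 were past 2-fold everywhere, and in Panc-1 it had the lowest value of the 42 genes with each inhibitor. FANCI was at 93.9, 31.8 and 12.95 TPM in PK-1 cells and 58.4, 22.2 and 15.3 TPM in Panc-1, with changes of -1.53, -2.77, -1.36 and -1.86. FANCD2, the partner it clamps on DNA with, was less abundant.

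FANCD2 was at 14.2, 4.73 and 2.19 TPM in PK-1 cells and 14.7, 7.22 and 5.35 TPM in Panc-1, so both lines began alike. It changed by -1.41, -2.26, -0.93 and -1.30. USP1, the protease that takes the ubiquitin off again, was at 55.6, 24.99 and 16.4 TPM in PK-1 cells and 45.5, 38.4 and 36.6 TPM in Panc-1. USP1 fell in PK-1 (-1.12 and -1.70) and read -0.24 and -0.31 in Panc-1, inside the spread.

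**Figure D3:**
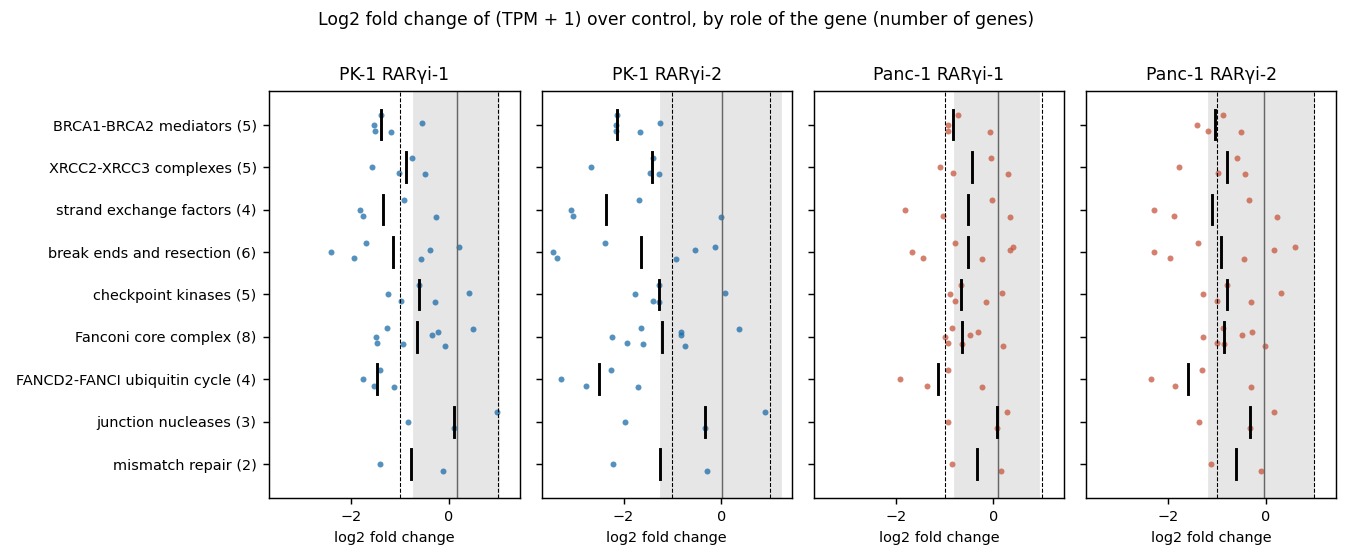
Log2 fold change of (TPM + 1) over control for the tested genes of each role, 1 panel for each treated library, with 1 point for each gene, a black bar at the group median, dashed lines at 2-fold and a grey band from the 10th to the 90th percentile of all tested entries around a grey line at their median. The FANCD2-FANCI ubiquitin cycle has the lowest median in every panel (-1.47, -2.51, -1.15 and -1.58), a rank it lost with a minimum of 10 TPM and, in PK-1, without a pseudocount, and the junction nucleases have the highest (0.10, -0.34, 0.08 and -0.32).

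The junction nucleases contained the only member near a 2-fold rise. MUS81, the catalytic subunit that cuts joined chromatids and stalled forks, was at 25.7 TPM in the PK-1 control, 52.1 with RARγi-1 and 48.8 with RARγi-2. In Panc-1 it was far higher from the start, at 99.1 TPM, and read 120 with RARγi-1 and 111 with RARγi-2. Its changes were 0.99, 0.90, 0.28 and 0.16, and the first was 1.02 when no pseudocount was added. EME1, a partner subunit of MUS81, was at 14.4, 7.64 and 2.93 TPM in PK-1 cells and 21.6, 10.8 and 7.74 TPM in Panc-1. Thus EME1 changed by -0.84, -1.97, -0.94 and -1.37 while its partner stood above the control in all 4 treated libraries. SLX4, the scaffold of these nucleases, changed by 0.10, -0.34, 0.08 and -0.32.

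MUS81 (chr11:65859674-65867653) shares exonic bases on the opposite strand with CFL1 and EFEMP2 in GENCODE 29. CFL1, which encodes the abundant actin-severing protein cofilin, was at 1836, 1171 and 1105 TPM in PK-1 cells and 3196, 1924 and 1725 TPM in Panc-1, so it was below its control in each treated library where MUS81 was above. EFEMP2, an extracellular matrix gene, was at the floor in PK-1 cells and at 22.6, 42.9 and 37.0 TPM in Panc-1. The library kit keeps strand, and whether counting used it is not given in the sources used here. In all, 12 members overlap 14 coding genes on the other strand, 11 of which reached 3 TPM in a library. Of these 11, the neighbour stood above the control and the member below it in 8, 8, 6 and 7 cases, the reverse held in 2 cases in each comparison, and both stood on the same side in 0, 0, 3 and 2. EFEMP2, at the floor in every PK-1 library, stood on neither side there. The same tally was not made for other pairs of genes, so it has no background beside it. Most members stood below the control, and the medians of all tested entries were 0.16, 0.01, 0.10 and -0.03. Opposite sides alone therefore do not set these pairs apart from others. As examples chosen after their values were seen, LRRC41 beside RAD54L changed by 0.91, 0.90, 0.74 and 0.69, VRK2 beside FANCL by 1.24, 0.96, 1.09 and 0.59, ZNF276 beside FANCA by 0.13, 0.02, -0.37 and -0.12, and NPAT beside ATM by -0.65, -1.17, -0.21 and -0.34. The part of the neighbours in the values of the members was not tested.

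Of the mismatch repair members, MSH6 fell with both inhibitors in PK-1 and with RARγi-2 in Panc-1, and PMS2 was not called. MSH6, which recognises single mispairs, was at 70.7, 25.9 and 14.4 TPM in PK-1 cells and 59.8, 33.0 and 27.0 TPM in Panc-1. Its changes were -1.41, -2.22, -0.84 and -1.12. PMS2, the endonuclease that nicks the new strand, was at 14.7, 13.4 and 11.8 TPM in PK-1 cells and 31.2, 34.8 and 29.1 TPM in Panc-1, and each of its changes was inside the spread. PMS2 has 11 annotated pseudogenes, so its count is uncertain.

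Of 3 other mismatch repair genes, none fell or rose past 2-fold in any of the 4 comparisons, and their medians were -0.13, -0.53, 0.44 and 0.07. MSH3, which recognises insertion and deletion loops, changed by -0.13, 0.04, 0.07 and -0.18. PMS1 had the highest value of the list in Panc-1, at 0.85 and 0.80, and was at -0.26 and -0.53 in PK-1.

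Between the control libraries the members were similar in level. The median log2 difference, Panc-1 minus PK-1, was -0.12 over 41 tested members. BRCA1 (-1.14), BRIP1 (-1.13) and RAD51C (-1.11) were more than 2-fold lower in Panc-1, beside 16.9 percent of 12592 tested entries. MUS81 (1.91) and PMS2 (1.03) were more than 2-fold higher, beside 18.3 percent. Summed over the 42 genes the control libraries held 1130 TPM in PK-1 cells and 1179 TPM in Panc-1. With RARγi-1 the sums were 620 and 794 TPM, and with RARγi-2 they were 396 and 674 TPM, so the treated libraries of PK-1 were the lower.

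The 2 lines were separate cultures with separate controls, so their lists can be set against each other. With RARγi-1, 7 members fell in both lines, which is 35 percent of the 20 in PK-1 cells and 100 percent of the 7 in Panc-1. They were XRCC2, RAD54L, RAD51AP1, EXO1, DNA2, UBE2T and FANCI. With RARγi-2, 16 members fell in both, 55.2 percent of the 29 in PK-1 cells and 94.1 percent of the 17 in Panc-1, and FANCL was the member called in Panc-1 alone. Of the 10920 entries tested in both lines, 2.63 percent fell in both with RARγi-1, which is 50.2 percent of those that fell in PK-1 and 42.5 percent of those in Panc-1. With RARγi-2 it was 6.56 percent, or 46.7 percent of the PK-1 entries and 56.2 percent of the Panc-1 entries. The fold change was lower in PK-1 for 30 of 42 members with RARγi-1 and 39 of 42 with RARγi-2. Of the 39 members tested in both lines, it was lower in PK-1 for 27 with RARγi-1 and 36 with RARγi-2. The share of all entries with the lower fold change in PK-1 was not computed, so these counts have no background beside them. Across the 39 members tested in both lines, Pearson's r was 0.78 for RARγi-1 and 0.87 for RARγi-2, a description over genes that share libraries and are not independent replicates. The lines differ in far more than their response, and with 1 library for each condition the difference between them was not tested.

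**Figure D4:**
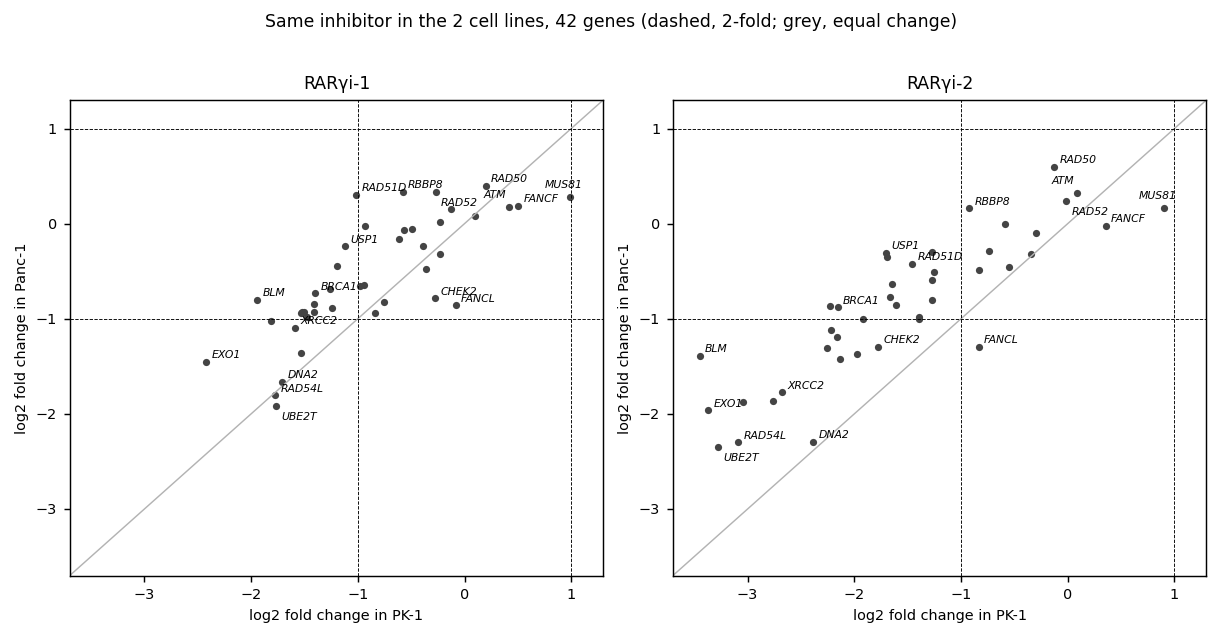
Log2 fold change of (TPM + 1) in PK-1 (horizontal) against Panc-1 (vertical) for the 42 genes, with RARγi-1 on the left and RARγi-2 on the right, dashed lines at 2-fold and a grey line of equal change. Most points with RARγi-2 lie above the grey line (39 of 42), DNA2 lies near it, and FANCL lies below it.

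Other genes of the same pathways, on lists that do not overlap the 42, had medians nearer to that of all entries. The lists are incomplete, because some recombination and mismatch repair genes are not reported here and were left out. Of 19 other recombination genes, 6, 11, 2 and 5 fell past 2-fold, beside 5.63, 14.3, 6.95 and 12.9 percent of all tested entries. Their medians were -0.83, -1.17, -0.35 and -0.28. In this list POLQ, the polymerase of microhomology-mediated joining, was lowest in PK-1 (-1.43 and -2.44), and RMI2, a partner of BLM, was lowest in Panc-1 (-1.43 and -1.997). SWI5, an accessory factor of strand exchange, was highest in every comparison (1.06, 1.24, 0.69 and 1.01) and passed 2-fold in 3 of 4.

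Of 11 other Fanconi genes, 1, 1, 2 and 3 fell, or 9.09, 9.09, 18.2 and 27.3 percent. Among all tested entries, 5.63, 14.3, 6.95 and 12.9 percent fell. The list had medians of 0.02, -0.35, -0.02 and -0.01. CENPX, a histone-fold partner of FANCM, fell in every comparison (-1.35, -2.03, -1.38 and -1.56), and FAAP100, which binds FANCB and FANCL, fell in Panc-1 alone (-1.51 and -1.55, beside -0.07 and -0.18 in PK-1). ERCC4, the nuclease that unhooks a crosslink, was highest in PK-1, at 0.56 and 0.62.

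Lists of other repair routes were read the same way, beside the 5.63, 14.3, 6.95 and 12.9 percent of all tested entries that fell. Of 10 genes of nonhomologous end joining, 2, 4, 0 and 2 fell, with medians of -0.42, -0.76, -0.19 and -0.39. PRKDC, the large kinase of that route, was lowest in PK-1 (-1.63 and -2.23). Of 17 base excision genes, 5, 7, 5 and 6 fell, with medians over the tested genes of -0.44, -0.84, -0.38 and -0.70. UNG had the lowest value with RARγi-1 in PK-1 (-2.22) and NTHL1 with each inhibitor in Panc-1 (-2.17 and -2.85). With RARγi-2 in PK-1 LIG1 was at -3.41, and NEIL3, at the floor there, was at -3.09 or lower. Of 18 nucleotide excision genes, 1, 2, 0 and 1 fell, with medians of -0.09, -0.18, 0.17 and 0.15, and XPC, which detects distorted helices, rose in PK-1 (1.05 and 1.11). The members had the lowest median of these lists in each comparison. Because the lists were written with results known, and those of recombination and mismatch repair are incomplete, this order was not tested.

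**Figure D5:**
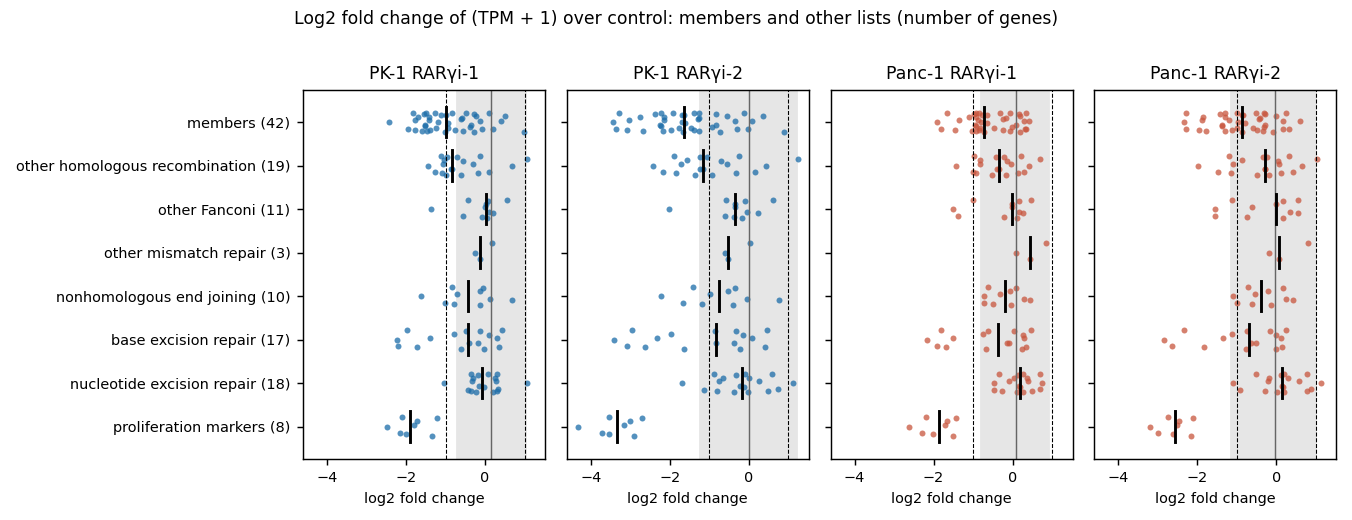
Log2 fold change of (TPM + 1) over control for the 42 members, 6 other repair lists and 8 proliferation markers, drawn for tested genes as in the plot by role. The members' medians (-0.98, -1.65, -0.73 and -0.87) lie left of every other repair list, and all 8 proliferation markers lie left of the dashed line at 2-fold.

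Markers of dividing cells moved with the members. All 8 proliferation markers (MKI67, TOP2A, CCNB1, CDK1, PLK1, AURKA, MCM2 and PCNA) fell in every comparison, with medians of -1.90, -3.34, -1.87 and -2.56. Their summed level was 1809, 509 and 197 TPM in PK-1 cells and 1463, 396 and 257 TPM in Panc-1. Their part in the values of the members was not tested. The members that stayed near or above the control (ATM, RAD50, RAD52, FANCF, MUS81, PMS2 and SLX4) did so in the same libraries. Of 8 housekeeping genes, 1, 2, 0 and 1 fell, beside 5.63, 14.3, 6.95 and 12.9 percent of all tested entries. The medians of these genes were -0.39, -0.58, -0.21 and -0.48. Rescaling the libraries by their median ratios shifted the log2 ratios of TPM by -0.09, 0.04, -0.08 and -0.01 before the pseudocount was added, and by less for low genes afterwards.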

How the data were processed

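PK-1 and Panc-1 cells were sequenced as 1 library for each of 6 conditions, with RNA taken by Trizol and libraries made with a stranded TruSeq mRNA kit. The authors deposited log2 TPM for each gene entry, with values under 1 TPM raised to 1. The build was hg38 per the submitters' processing notes, and the aligner, the counter and the annotation are not given in the sources used here. Depth is unknown. The log2 values were turned back into TPM, 1 TPM was added, and each treated library was set against the control of its line. Entries with at least 3 TPM in 1 or more of the 3 libraries of a line were tested, 12287 for PK-1 and 12151 for Panc-1, and calls were made past 2-fold. With 1 library per condition there was no test. As spread served the median absolute deviation, times 1.4826, of the gap between both inhibitor libraries of a line.

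The members and all gene lists were chosen with earlier results of these data known. Values in every library were given for the lowest and highest member of each role group by mean fold change, and for BRCA1, BRCA2, PALB2, ATM, ATR, CHEK1, CHEK2, FANCD2, FANCI, MSH6 and PMS2, 25 genes in all. Some genes of the other recombination and mismatch repair lists are not reported here and were left out of those lists. Other lists were given by counts, medians and their lowest and highest genes. Gene positions and promoter windows came from RefSeq (GRCh38.p14) and overlaps of exons from GENCODE 29. Alternatives were no pseudocount, 0.1 or 5 TPM, no filter or 10 TPM, fold thresholds of 1.5 and 3, rescaling by median ratios and a shorter motif. The scripts were tested on simulated data. Python 3.11.15, numpy 2.4.6, pandas 2.3.3, scipy 1.17.1 and matplotlib 3.10.9 were used.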

Additional observations from a re-analysis of the deposited data

Results flagged for a closer look

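Of the 42 members, 2 stood below the control in both treated PK-1 libraries and above it in both treated Panc-1 libraries, and this difference between the lines was not tested. RBBP8 had mean log2 fold changes of -0.75 for PK-1 and 0.25 for Panc-1, a difference of 1.002. RAD52 had -0.14 and 0.29, a difference of 0.43, and both of its PK-1 values lay within the spread, and the one with RARγi-2 was above the control, at 0.02, when the libraries were rescaled. Both genes share exonic bases with another gene on their strand, and RBBP8 has an annotated pseudogene, so their counts are uncertain.

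Among the other repair genes, 3 showed the same opposite directions, also untested. For PMS1 the mean in Panc-1 was 1.22 above that in PK-1, for RNF168, a ubiquitin ligase at breaks, 1.04 above, and for MUTYH, a glycosylase of oxidised mispairs, 0.90 above.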

How the results depend on the processing

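Over the counts and medians, 538 alternative values stayed and 61 moved. A fold change or median stayed if it lay within the spread for 1 library of the main value. That spread was 0.29 in PK-1 and 0.23 in Panc-1, smaller than the one for a fold change. A count stayed if it was within 1.5 times the main count. The sign changed for 2 medians, that of the other Fanconi genes in PK-1 with RARγi-1 on rescaling (0.02 to -0.07) and that of the members between the controls with a minimum of 10 TPM (-0.12 to 0.04). Of the values of the named members, 486 stayed and 62 moved, and RAD52 in PK-1 with RARγi-2 went from -0.01 to 0.02 on rescaling. Many of the 486 could not move. A filter leaves the fold change of a gene as it is, which fixed 94 values with no filter and 78 with 10 TPM. Rescaling shifted log2 ratios by no more than 0.09, less than the spread for 1 library, which fixed another 94. With a pseudocount of 5 TPM, 38 values moved and 56 stayed. With a pseudocount of 5 TPM, 13 calls of named members were lost, of BARD1, BRCA2, ATRIP and FANCD2 in PK-1 with RARγi-1, PALB2, BRCA2, ATR and ATRIP in PK-1 with RARγi-2, XRCC2 in Panc-1 with RARγi-1, and BARD1, XRCC2, ATRIP and FANCD2 in Panc-1 with RARγi-2. Without a pseudocount 6 were gained, CHEK1 and MUS81 in PK-1 with RARγi-1 and BARD1, FANCA, FANCD2 and EME1 in Panc-1 with RARγi-1, all but EME1 also with 0.1 TPM. On rescaling 3 were gained, CHEK1 in PK-1 and FANCD2 and EME1 in Panc-1, each with RARγi-1. With a pseudocount of 5 TPM, which shrinks the changes of low genes by construction, the members that fell were 12 in PK-1 with RARγi-1 and 10 in Panc-1 with RARγi-2, and the medians of all members were -0.68, -1.09, -0.49 and -0.63. At that setting the mediators had -0.86, -1.09, -0.46 and -0.57, the strand exchange factors -0.98 and -1.53 in PK-1 and -0.77 in Panc-1 with RARγi-2, and, with RARγi-2 alone, resection -1.18 in PK-1 and -0.69 in Panc-1, checkpoint kinases -0.95 in PK-1, the core complex -0.78 and -0.47 and the ubiquitin cycle -1.98 and -1.29. The other recombination genes that fell were then 2, 1 and 2 (PK-1 RARγi-1, Panc-1 RARγi-1 and Panc-1 RARγi-2), end joining 1 in PK-1 with RARγi-1 and 1 in Panc-1 with RARγi-2, and nucleotide excision 0, 1 and 0 (PK-1 RARγi-1, PK-1 RARγi-2 and Panc-1 RARγi-2). With no pseudocount or 0.1 TPM, Panc-1 with RARγi-1 had 13 or 12 members lower, 1 member (MUS81) was higher in PK-1 with RARγi-1, the other recombination genes that fell in Panc-1 with RARγi-1 were 4 with each, the strand exchange factors in PK-1 with RARγi-2 had -2.80 or -2.74 and the mediators in Panc-1 with RARγi-2 had -1.41 or -1.35. A fold threshold of 3 left 6 members in PK-1 and 3 in Panc-1 with RARγi-1 and 7 in Panc-1 with RARγi-2. A threshold of 1.5 gave 22 lower in Panc-1 with RARγi-1, and 1 higher in PK-1 with each inhibitor and in Panc-1 with RARγi-2. A minimum of 10 TPM, which drops genes from small groups, gave mediators of -0.98, -1.70, -0.40 and -0.69, strand exchange factors of -1.79, -3.06, -1.42 and -2.09, a core complex of -0.83 in PK-1 with RARγi-2, -0.061 for the XRCC2-XRCC3 complexes and 1 other recombination gene in Panc-1 with RARγi-1, and medians of -0.31 for the other Fanconi genes and 0.31 for the other mismatch repair genes in Panc-1 with RARγi-2. No filter gave -0.061 for the XRCC2-XRCC3 complexes and -0.15 for base excision in Panc-1 with RARγi-1. The 7-base motif was in 57.9 percent of the members' promoters. No paired analysis was possible within a line because each condition was 1 library and carries no replicate number, and for the same reason no replicate could be left out. A fit over all 6 libraries with the line as a block, which would use the lines as replicates, was not run. The lack of replicates and of depth limits every value, and low genes such as BRCA2, RAD51B and FANCM most.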
